A study of Homo sapiens with 10 samples.

Results

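The 28 genes described here make cholesterol or set how much of it a cell makes. They were taken by symbol from a table of read counts per gene with 25370 rows, and all 28 symbols were found. The list holds 7 genes of the mevalonate pathway, 11 of the steps from squalene to cholesterol, 5 for the SREBP transcription factors and the proteins that hold or release them, and 5 lipid genes known as SREBP targets or as carriers of sterol. RNA was sequenced from PEO1, an established epithelial line of high-grade serous ovarian carcinoma with a BRCA2 mutation, and from 4 veliparib-resistant clones of it named ABTr1 to ABTr4. Veliparib (ABT888) inhibits PARP enzymes, which cells with defective homologous recombination depend on. Continuous exposure of the clones to veliparib at 40 µM lasted 6 months, followed by a drug-free interval of 4 to 5 days ending with RNA collection. No drug is given for the parental cells. All cells grew in a medium with fetal bovine serum and insulin, and all descend from the same line. Whether each clone kept the mutations of PEO1, that of BRCA2 included, was not tested here. Each resistant group is 1 clone with 2 libraries, numbered 1 and 2, and the parental line also has 2, which makes 10 libraries. What the number stands for, and whether libraries of a group came from separate cultures, is not stated, so p-values here measure the spread between these libraries. Clone names follow the library titles, because the samples' descriptions number the same clones differently.

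Cholesterol is built from acetyl-CoA through mevalonate, farnesyl diphosphate and squalene, and a cyclised product, lanosterol, is then trimmed and reduced to cholesterol. The genes of these steps are switched on together by SREBP proteins, which SCAP carries out of the endoplasmic reticulum when membrane sterol is low and which INSIG proteins hold back when it is high. SREBF2 encodes the member of the family best known for sterol synthesis, and SREBF1 encodes the members best known for fatty acid genes. Tumour cells in culture can either make cholesterol or take it up from serum lipoprotein.

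The libraries held between 20640602 and 55488566 counts in genes. Every member was well covered: the lowest count of any member in any library was 175, and all 28 were among the 16490 genes kept for testing. Levels below are counts per 1000000 (CPM) on library sizes scaled by edgeR's TMM method, and levels of different genes are compared only per kilobase of exon (FPKM, computed from the CPM). The 4 clones together were compared with the parental line as the mean of their log2 levels by edgeR's quasi-likelihood test, and a gene is called where its adjusted p (Benjamini-Hochberg over all genes tested) is under 0.05. Libraries with the same number deviated together from their group means in all 10 pairs of groups, so a fit with a block for the replicate number is given beside the counts and calls it changes. The parental libraries stood apart from each other for many members: SCD was 4.15 times, MSMO1 3.89 times and TM7SF2 2.60 times as high in replicate 2 as in replicate 1.

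Genes at both ends of the cholesterol pathway were lower in the resistant clones than in the parental line. Of the 28 members 10 fell and 0 rose, where 8.79% of all genes tested fell and 7.17% rose. The 10 are ACAT2, HMGCS1 and MVK of the mevalonate pathway, FDFT1, LSS, CYP51A1, NSDHL, EBP and DHCR7 of the later steps, and the fatty acid synthase gene FASN. In total 25 of 28 members had a negative log2 difference, and the median difference of the members was -0.65, beside 0.02 for all genes tested. With the replicate block 18 of 28 fell and 0 rose, where 18.2% of all genes fell and 16.3% rose, and IDI1, FDPS, SQLE, TM7SF2, MSMO1, HSD17B7, INSIG1 and SCD joined the 10. The median with the block was also -0.65. These are bulk libraries, in which fewer cells of a kind and less RNA per cell cannot be told apart. The size of the difference depended on the parental libraries. Without the block, the median of the members was -0.29 without parental replicate 2, beside 0.06 for all genes, and 17 of 28 members were negative. It was -0.90 without parental replicate 1 and -0.70 to -0.62 without any 1 clone library. With the block, the median was -0.46 without parental replicate 2 and -0.91 without parental replicate 1. It was -0.69 to -0.58 with the block and without any 1 clone library.

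**Figure D1:**
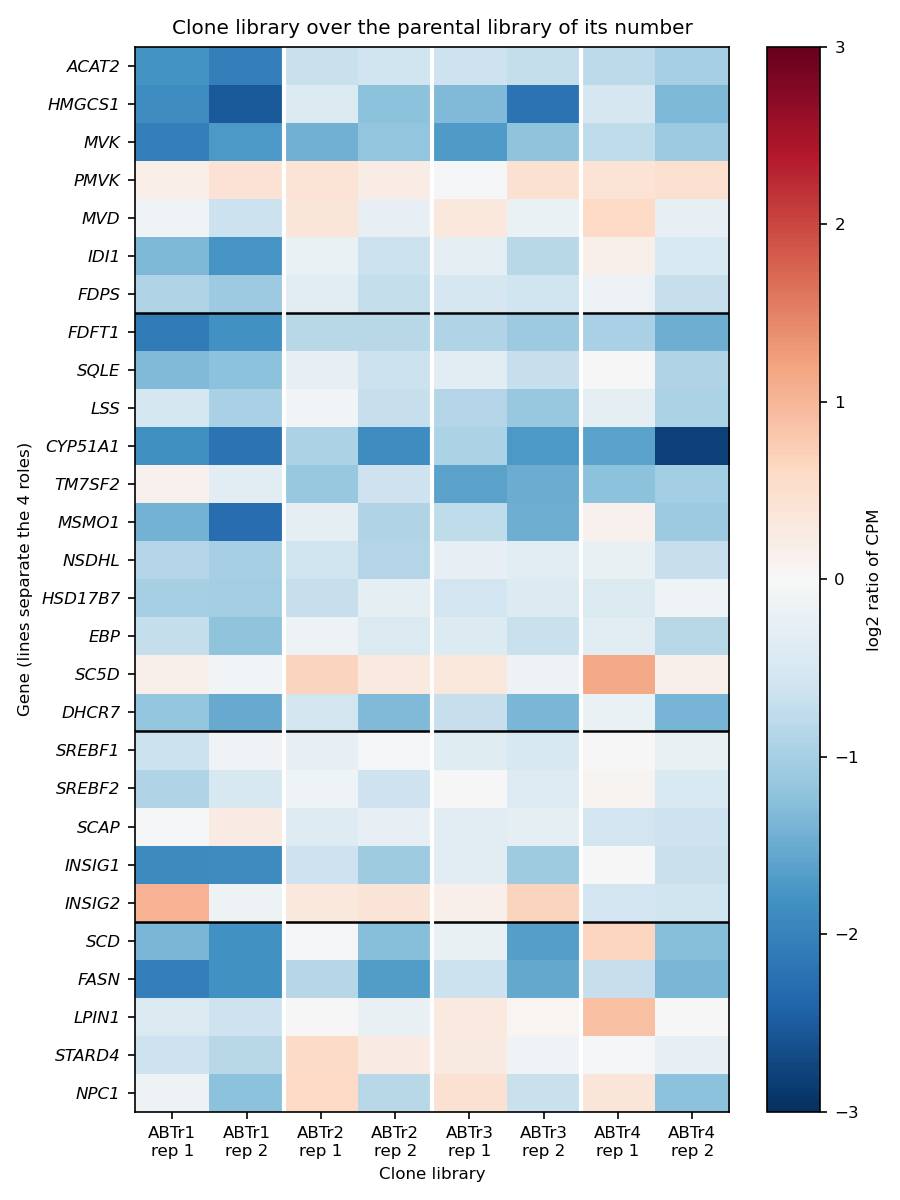
Each cell is the log2 ratio of CPM in 1 clone library (columns) to the parental library of the same number, for the 28 members in rows, with black lines between the roles; blue is lower and red is higher than in the parental library. The ABTr1 columns are dark blue for HMGCS1, ACAT2, MVK and FDFT1, CYP51A1 is blue in every column, and PMVK and SC5D are mostly pale or red.

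The libraries were also compared singly. In 10 members all 8 clone libraries lay below both parental libraries (ACAT2, HMGCS1, MVK, FDPS, LSS, CYP51A1, NSDHL, EBP, DHCR7 and FASN), where 12.5% of all genes tested did so, and in 0 members all 8 lay above both, where 14.5% did. In 14 members each clone library lay below the parental library of its own number, against 19.2% of all genes. Summed over the 18 synthesis genes, the parental libraries held 1951 and 3285 CPM. The clone libraries held 837 and 1106 in ABTr1, 1508 and 1779 in ABTr2, 1224 and 1464 in ABTr3, and 1609 and 1559 in ABTr4, so all 8 were below both parental sums.

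Within the mevalonate pathway 3 of 7 genes fell, with a median log2 difference of -0.72. HMGCS1, which encodes the cytosolic synthase that makes the precursor of mevalonate, lies on chromosome 5 at 43287572-43313614 of hg19. It stood at 433 and 815 CPM in parental replicates 1 and 2, at 119 and 142 in ABTr1, 328 and 345 in ABTr2, 174 and 176 in ABTr3, and 307 and 320.1 in ABTr4. All 8 clone values were below both parental values, and ABTr1 and ABTr3 were the lowest. Its level fell from 624 ± 270.1 CPM (SD, n = 2 libraries) to 239 ± 101 (SD, n = 4 clones), a log2 difference of -1.49 (SE 0.22, adjusted p = 0.00327). MVK, the kinase that phosphorylates mevalonate, lies on chromosome 12 at 110011500-110035071 of hg19. It read 24.7 and 28.9 CPM in the parental libraries, 6.00 and 8.74 in ABTr1, 9.12 and 12.7 in ABTr2, 7.60 and 12.6 in ABTr3, and 14.4 and 13.6 in ABTr4. No clone library reached the lower parental value, and the log2 difference was -1.38 (SE 0.25, adjusted p = 0.00761). ACAT2, the cytosolic thiolase that joins acetyl-CoA units at the start of the pathway, lies on chromosome 6 at 160182989-160200087 of hg19. Its values were 58.6 and 86.6 CPM in the parental libraries, 16.8 and 20.8 in ABTr1, 37.1 and 57.7 in ABTr2, 38.0 and 53.0 in ABTr3, and 34.2 and 43.3 in ABTr4. ABTr1 was far below the rest, while replicate 2 of ABTr2 came close to parental replicate 1. The log2 difference of ACAT2 was -1.04 (SE 0.24, adjusted p = 0.022). Of its exon bases 25.6% also belong to TCP1 on the opposite strand, and whether counting used strand is not given in the sources used here, so part of its count is uncertain. In all, 7 of 28 members share exon bases with another gene of the table, the next largest share being 12.6% of FDPS with RUSC1-AS1.

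The other 4 genes of the pathway were not called. IDI1, the isomerase of isopentenyl diphosphate, read 86.1 and 156 CPM in the parental libraries, 33.9 and 45.7 in ABTr1, and 71.1 to 113 in the other clones, so the groups overlapped. Its log2 difference was -0.72 (SE 0.25, adjusted p = 0.0835, and 0.00561 with the block). FDPS, which joins isoprene units into farnesyl diphosphate, read 118 and 164 CPM in the parental libraries and 63.4 to 108 in the 8 clone libraries. The groups did not overlap, yet its difference of -0.64 (SE 0.19) had an adjusted p of 0.0529, and 0.00741 with the block. PMVK and MVD, which act between MVK and IDI1, did not share the lower levels. PMVK read 25.4 and 20.5 CPM in the parental libraries and 23.8 to 33.6 in the clones (log2 difference 0.32, SE 0.21, adjusted p = 0.356). MVD read 26.5 and 37.1 CPM in the parental libraries and 23.8 to 39.8 in the clones (log2 difference -0.03, SE 0.20, adjusted p = 0.932). A p above the threshold does not show that either gene was unchanged.

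From squalene to cholesterol 6 of 11 genes fell, with a median log2 difference of -0.71. CYP51A1, the lanosterol demethylase that removes the first methyl group after ring closure, lies on chromosome 7 at 91741463-91764059 of hg19 and had the smallest adjusted p of all members. Its values were 168 and 291 CPM in parental replicates 1 and 2, 47.1 and 63.0 in ABTr1, 86.9 and 79.6 in ABTr2, 86.3 and 88.3 in ABTr3, and 54.7 and 41.5 in ABTr4. The highest clone value was thus well under the lower parental value, and ABTr4 and ABTr1 were the lowest clones. Its level fell from 229 ± 87.2 CPM (SD, n = 2) to 68.4 ± 19.7 (SD, n = 4), or by 1.79 on the log2 scale (SE 0.22, adjusted p = 0.00136). DHCR7, the reductase of the last step to cholesterol, lies on chromosome 11 at 71145457-71159477 of hg19. It read 177 and 309 CPM in the parental libraries, 78.7 and 108 in ABTr1, 121 and 122 in ABTr2, 109 and 120.1 in ABTr3, and 153 and 118 in ABTr4. All clone values lay below both parental values, and the difference was -1.08 (SE 0.23, adjusted p = 0.0155). FDFT1, the squalene synthase that commits farnesyl diphosphate to sterols, read 176 and 317 CPM in the parental libraries, 41.1 and 90.0 in ABTr1, 99.5 and 179 in ABTr2, 93.6 and 149 in ABTr3, and 90.2 and 114 in ABTr4. Only replicate 2 of ABTr2 reached the lower parental value, and every clone library was below the parental library of its own number. Its log2 difference was -1.26 (SE 0.35, adjusted p = 0.0408).

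The other 3 called genes of these steps moved less. LSS, the cyclase that makes lanosterol, read 81.3 and 114 CPM in the parental libraries and 43.9 to 76.5 in the clones (log2 difference -0.71, SE 0.18, adjusted p = 0.0303). NSDHL, a dehydrogenase that takes part in removing methyl groups, read 73.7 and 77.5 CPM in the parental libraries and 38.8 to 63.6 in the clones (-0.60, SE 0.17, adjusted p = 0.0465). EBP, the isomerase that moves a ring double bond, read 83.8 and 104 CPM in the parental libraries and 45.1 to 77.7 in the clones (-0.59, SE 0.16, adjusted p = 0.0416). In each of these genes all 8 clone libraries were below both parental libraries. The calls differed in how far they rested on single libraries: of the 10 fits that left out 1 library, NSDHL and EBP passed in 0, LSS and FDFT1 in 3, FASN in 4, ACAT2 in 8, MVK and DHCR7 in 9, and HMGCS1 and CYP51A1 in 10.

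Of the 5 remaining genes of the late steps, 4 were lower on average, missed the threshold without the block and passed it with the block. MSMO1, an oxidase of methyl sterols, read 63.7 and 247 CPM in the parental libraries, 23.6 and 50.8 in ABTr1, 51.8 and 132 in ABTr2, 37.3 and 89.4 in ABTr3, and 69.1 and 117 in ABTr4. Replicate 2 exceeded replicate 1 in every group, so the groups overlapped across numbers although each clone library except ABTr4 replicate 1 was below its same-numbered parental library. Its log2 difference was -1.22 (SE 0.54, adjusted p = 0.161), and with the block -1.05 (SE 0.19, adjusted p = 0.00211). TM7SF2, a sterol reductase, read 23.9 and 62.3 CPM in the parental libraries, 26.1 and 48.9 in ABTr1, and 7.81 to 40.5 in the other clones. ABTr1 lay inside the parental span, and the adjusted p went from 0.362 to 0.00397 with the block (-0.90, SE 0.18). HSD17B7, a ketosteroid reductase of the same steps, read 9.84 and 16.6 CPM in the parental libraries and 4.95 to 15.2 in the clones, with replicate 2 the higher library in every group. Its adjusted p went from 0.441 to 0.0385 (-0.57, SE 0.19), which is near the threshold. The difference of HSD17B7 with the block was -0.68 to -0.50 when 1 library was left out. SQLE, the epoxidase of squalene and a control point of the pathway, read 256 and 316 CPM in the parental libraries, 103 and 134 in ABTr1, and 169.9 to 257 in the other clones (-0.67, SE 0.21, adjusted p = 0.0589, and 0.016 with the block). It also passed by DESeq2 (adjusted p = 0.025) and in 1 of the 10 fits that left out a library (adjusted p = 0.0435, without ABTr4 replicate 1). SC5D, a desaturase near the end of the pathway, had the other sign: 64.4 and 121 CPM in the parental libraries and 71.1 to 148 in the clones (log2 difference 0.26, SE 0.30, adjusted p = 0.603).

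**Figure D2:**
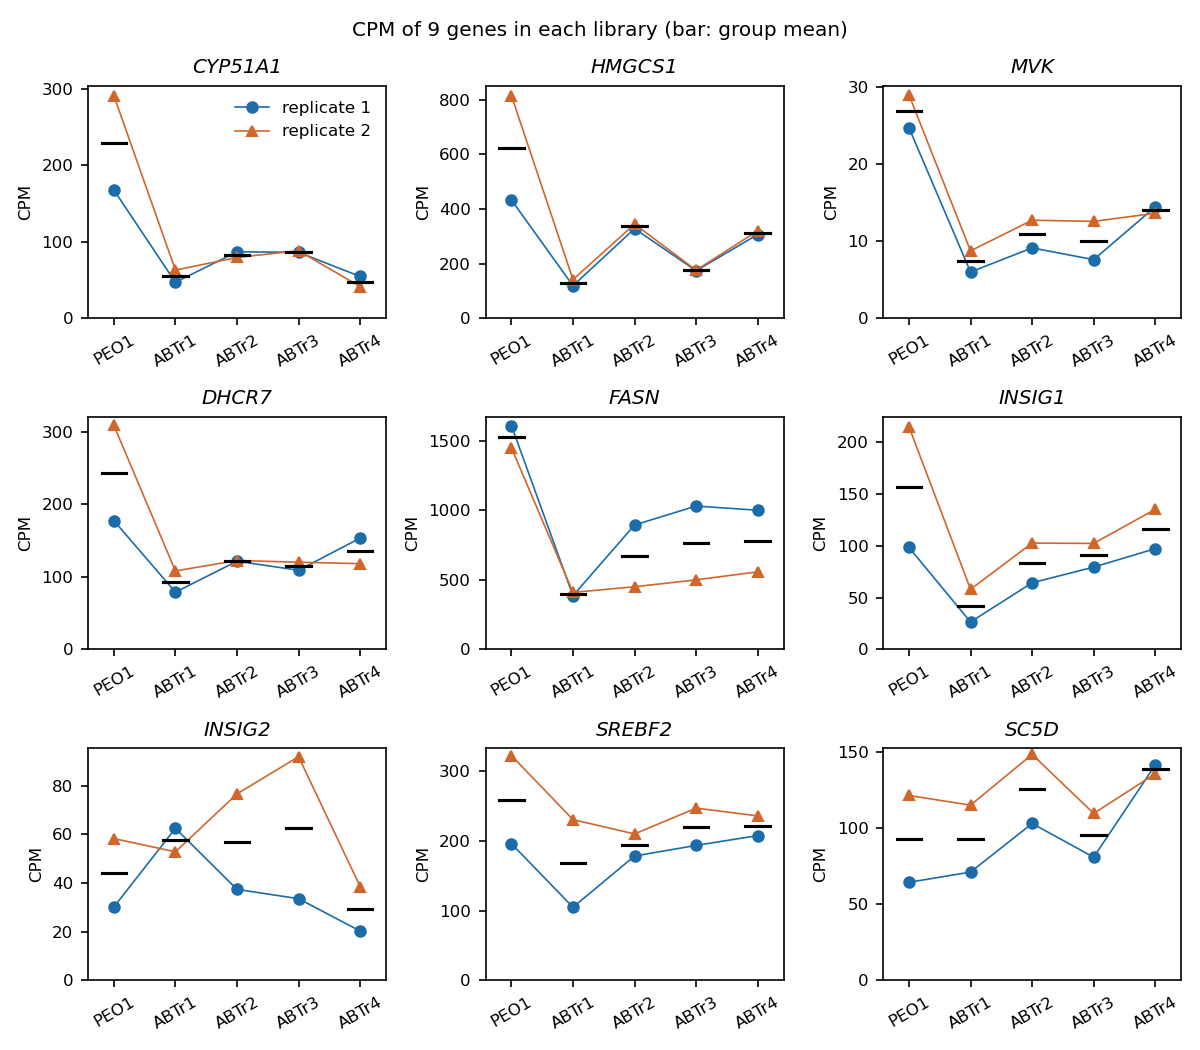
CPM of 9 members (linear axes from 0) in the parental line and the 4 clones, with circles for replicate 1, triangles for replicate 2, thin lines joining libraries of 1 number and a black bar at the mean of each group. CYP51A1, HMGCS1, MVK, DHCR7 and FASN lie lower in all 8 clone libraries than in both parental libraries, while SREBF2 and SC5D overlap.

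Of the SREBP genes and their controllers 0 of 5 were called, and 1 had an unadjusted p under 0.05. By DESeq2 0 of these 5 were called as well. SREBF2 (chromosome 22, 42229083-42303312 of hg19) read 196 and 322 CPM in the parental libraries, 105 and 231 in ABTr1, 178 and 210.0 in ABTr2, 194 and 247 in ABTr3, and 208 and 236 in ABTr4. The clone values lay within or below the parental span, and the log2 difference was -0.38 (SE 0.30, adjusted p = 0.442). SREBF1 read 84.6 and 117 CPM in the parental libraries and 54.4 to 114 in the clones (-0.24, SE 0.29, adjusted p = 0.625). SCAP, the escort protein, read 66.3 and 53.1 CPM in the parental libraries and 34.3 to 64.0 in the clones (-0.29, SE 0.19, adjusted p = 0.335). The counts of SREBF1 do not separate its transcript forms. INSIG1 (chromosome 7, 155089486-155101945 of hg19) both restrains SREBP and is itself switched on by it. It read 98.5 and 215 CPM in the parental libraries, 26.4 and 58.0 in ABTr1, 64.3 and 103 in ABTr2, 79.5 and 102 in ABTr3, and 97.3 and 135 in ABTr4. Every clone library was below the parental library of its number, by little in ABTr4 replicate 1. Its fitted level was 2.01-fold lower in the clones (adjusted p = 0.0892), and with the block INSIG1 fell (log2 difference -0.95, SE 0.17, adjusted p = 0.00207). INSIG2, its relative, read 30.1 and 58.3 CPM in the parental libraries and 20.3 to 91.9 in the clones (0.17, SE 0.45, adjusted p = 0.843).

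Among the 5 lipid genes FASN fell. FASN, which makes palmitate from malonyl-CoA (chromosome 17, 80036214-80056106 of hg19), read 1608 and 1449 CPM in the parental libraries, 385 and 409 in ABTr1, 893 and 449.8 in ABTr2, 1029.8 and 499 in ABTr3, and 999 and 557 in ABTr4. All 8 clone values were below both parental values, and in ABTr2, ABTr3 and ABTr4 replicate 2 was the lower library. Its level fell from 1529 ± 113 CPM (SD, n = 2) to 653 ± 177 (SD, n = 4), a log2 difference of -1.28 (SE 0.33, adjusted p = 0.0341). SCD, the desaturase that makes monounsaturated fatty acids, read 738 and 3063 CPM in the parental libraries, 287 and 876 in ABTr1, 711 and 1259 in ABTr2, 629.9 and 974 in ABTr3, and 1156 and 1268 in ABTr4. Its parental values lay further apart than those of any other member, and 5 of the 8 clone libraries were above parental replicate 1 while all 8 were far below parental replicate 2. Its log2 difference was -1.14 (SE 0.51, adjusted p = 0.169), and with the block -0.93 (SE 0.29, adjusted p = 0.0302). The difference of SCD with the block ranged from -1.53 to -0.23 when 1 library was left out, so it depended on single libraries. LPIN1, a phosphatidate phosphatase, STARD4, a carrier of sterol between membranes, and NPC1, which exports cholesterol from lysosomes, were not called with or without the block. Their log2 differences were -0.01 for LPIN1 (SE 0.21), -0.14 for STARD4 (SE 0.43) and -0.42 for NPC1 (SE 0.27).

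**Figure D3:**
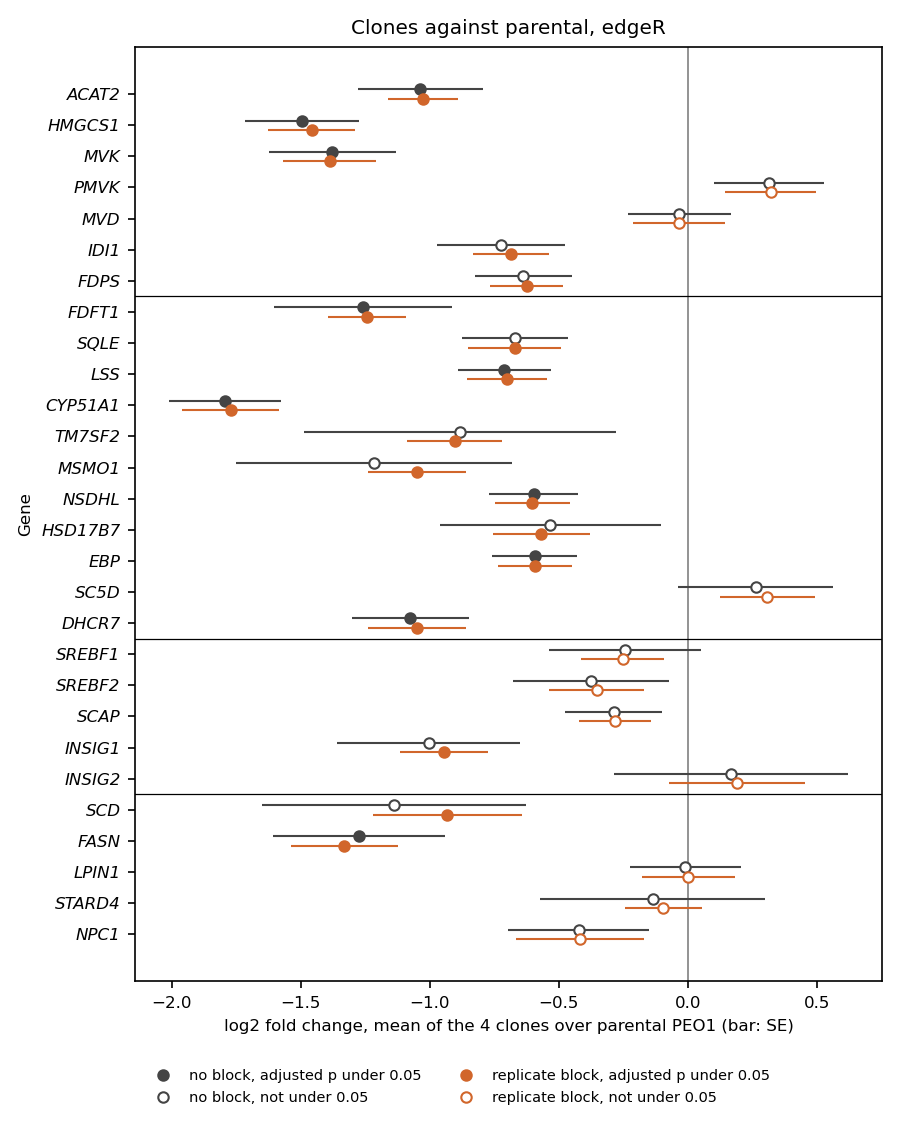
Log2 fold change of each member (rows), mean of the 4 clones over the parental line, from edgeR without the replicate block (grey) and with it (orange); bars are 1 standard error, and filled points have an adjusted p under 0.05. The bars of MSMO1, TM7SF2 and FDFT1 are shorter with the block, and CYP51A1 lies furthest to the left at -1.79.

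Expressed per kilobase, the most abundant members in the parental line were SCD at 348 FPKM, FASN at 181, HMGCS1 at 115 and SQLE at 95.8, and the least abundant was HSD17B7 at 8.69. The median over the mevalonate genes was 46.8 FPKM and over the genes of the SREBP system 20.2. Among the called members the parental level ranged from 12.9 FPKM for MVK to 181 for FASN.

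Upstream sequence is shown for 3 members. SREBF2 is shown because it is the only member whose window holds the searched sterol element string, TCACNCCAC. HMGCS1 and MVK were chosen after their values were seen. They had the smallest adjusted p among members with the CCAAT box and without that string. Variants of the string were not searched, so its absence does not show that a promoter lacks a sterol element. The sequences are the 250 bases before the start in RefSeq's GRCh38.p14, written 5′ to 3′ on the gene's strand, and 24 of 28 members had an entry. Capitals mark TCACNCCAC (the sterol element) and CCAAT (bound by NF-Y, a known partner of SREBP), either as written or as the reverse complement. SREBF2 lies at chr22:41832855-41833104 (plus strand), HMGCS1 at chr5:43313413-43313662 (minus strand) and MVK at chr12:109573544-109573793 (plus strand).
SREBF2: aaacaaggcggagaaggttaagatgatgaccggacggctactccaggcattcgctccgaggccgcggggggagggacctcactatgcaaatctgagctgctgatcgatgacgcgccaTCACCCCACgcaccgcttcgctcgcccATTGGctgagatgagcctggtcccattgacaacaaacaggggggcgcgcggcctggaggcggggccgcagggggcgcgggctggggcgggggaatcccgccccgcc
HMGCS1: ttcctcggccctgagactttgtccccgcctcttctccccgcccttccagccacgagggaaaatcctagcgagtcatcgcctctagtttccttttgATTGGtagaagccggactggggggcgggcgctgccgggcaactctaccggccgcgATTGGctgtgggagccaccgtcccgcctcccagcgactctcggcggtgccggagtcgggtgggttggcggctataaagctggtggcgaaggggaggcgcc
MVK: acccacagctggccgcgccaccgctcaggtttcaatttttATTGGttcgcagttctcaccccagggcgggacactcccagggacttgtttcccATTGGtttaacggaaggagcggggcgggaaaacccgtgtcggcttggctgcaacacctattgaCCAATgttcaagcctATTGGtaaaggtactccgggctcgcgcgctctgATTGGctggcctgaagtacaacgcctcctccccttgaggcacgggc
In SREBF2 the sterol element began 133 bases before the start and a CCAAT box 106 bases before it. HMGCS1 held 2 CCAAT boxes, 155 and 100 bases before the start, and MVK held 5, between 210 and 46 bases before it. The search covered both strands of windows of 300 bases that also take in the 50 bases after the start. Members and tested genes were counted once each if any of their windows matched, while RefSeq windows were counted singly. TCACNCCAC was in 1 of 24 members, 1.5% of tested genes with a window and 1.13% of all 35116 RefSeq windows. CCAAT was in 17 of 24 members (70.8%), against 34.6% of all windows and 42.5% of tested genes. The GC box GGGCGG, which Sp1 binds, was in 23 of 24 members (95.8%), 45.0% of all windows and 73.7% of tested genes. A match here is a string of letters, whether matches of different motifs share letters was not checked, and binding was not measured.

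Set against the parental line singly, ABTr1 had the largest median difference of the 4 clones. Without the block 13 of 28 members fell in ABTr1 (4.29% of all genes fell), 1 in ABTr2 (2.81%), 4 in ABTr3 (3.89%) and 1 in ABTr4 (5.25%). No member rose in any clone, where 5.48%, 3.31%, 3.48% and 4.46% of all genes rose in ABTr1 to ABTr4. The 1 member of ABTr2 and of ABTr4 was CYP51A1. With the block 18, 10, 10 and 11 members fell and 0 rose, where 14.5%, 10.8%, 11.6% and 13.9% of all genes fell and 15.5%, 11.3%, 11.0% and 13.1% rose. The median log2 difference of the members was -0.99 in ABTr1, -0.46 in ABTr2, -0.55 in ABTr3 and -0.54 in ABTr4. These comparisons share the parental libraries. Without the block, the count for ABTr1 was 0 without either of its own libraries, 2 without parental replicate 2, 6 without either ABTr3 library and 8 without either ABTr4 library. For ABTr3 it was 0 without parental replicate 2 or either of its own libraries, 1 without either ABTr1 library and 2 without either ABTr4 library. For ABTr2 it was 3 without parental replicate 1 and 0 without parental replicate 2 or any library of ABTr1, ABTr2 or ABTr3, and for ABTr4 it was 3 without parental replicate 1 and 1 otherwise. CYP51A1 fell in each clone, by 2.06, 1.46, 1.39 and 2.25 on the log2 scale in ABTr1 to ABTr4 (adjusted p = 0.01, 0.031, 0.035 and 0.0058). HMGCS1 differed by -2.26, -0.89, -1.83 and -0.99, with adjusted p of 0.0075, 0.13, 0.015 and 0.08, and of 0.00029, 0.027, 0.00081 and 0.014 with the block. MVK differed by -1.86, -1.30, -1.41 and -0.93 (adjusted p = 0.017, 0.061, 0.045 and 0.12, all under 0.05 with the block). INSIG1 differed by -1.89 in ABTr1 but by -0.43 in ABTr4, where its adjusted p was 0.64 without and 0.29 with the block.

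The difference of ABTr1 from the other clones was tested directly. Without the block 0 of 28 members were called (10 had an unadjusted p under 0.05, and DESeq2 called 3), where 0.0121% of all genes were. With the block 7 members were lower and 1 higher in ABTr1, where 0.691% and 2.27% of all genes were. ACAT2 was lower by a log2 difference of -1.20 (SE 0.16, adjusted p = 0.0131), IDI1 by -1.18 (SE 0.17, adjusted p = 0.0157), INSIG1 by -1.26 (SE 0.20, adjusted p = 0.0205) and HMGCS1 by -1.03 (SE 0.20, adjusted p = 0.0363). FDFT1 (-0.94), MSMO1 (-1.13) and STARD4 (-0.84) were the others that were lower. TM7SF2 went the other way, at 26.1 and 48.9 CPM in ABTr1 and 7.81 to 40.5 in the other clones, a log2 difference of 1.09 (SE 0.19, adjusted p = 0.0275). In 13 of 28 members both ABTr1 libraries were below the 6 libraries of the other clones, where 5.92% of all genes were. Over all 4 clones at once, 3 members differed among clones with the block (ACAT2, IDI1 and HMGCS1, where 0.843% of all genes did) and 0 without it, where 0.00606% of all genes did, although DESeq2 without the block called 1, HMGCS1.

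Many members differed between the replicate numbers. In the fit with the block 13 of 28 members were higher in replicate 2 than in replicate 1 and 1 was lower, where 15.5% and 14.8% of all genes were. In 12 members replicate 2 was above replicate 1 in all 5 groups, where 19.1% of all genes were. TM7SF2 was higher by 1.46 on the log2 scale (SE 0.16, adjusted p = 0.000699), MSMO1 by 1.28 (SE 0.16, adjusted p = 0.00104), SCD by 1.05 (SE 0.25, adjusted p = 0.0117) and STARD4 by 0.96 (SE 0.12, adjusted p = 0.00101). Both SREBP genes were higher too, SREBF1 by 0.55 (SE 0.13, adjusted p = 0.0124) and SREBF2 by 0.52 (SE 0.15, adjusted p = 0.0277). FASN was lower by a log2 difference of -0.59 (SE 0.18, adjusted p = 0.0348). CYP51A1 (0.14, SE 0.17), HMGCS1 (0.26, SE 0.15) and DHCR7 (0.21, SE 0.16) were not called between the numbers, although each was higher in parental replicate 2, by 1.74, 1.88 and 1.74 times. Proliferation markers moved the opposite way, with 7 of 8 lower in replicate 2 and a median log2 difference of -0.79, and their summed level was 3363 and 1510.5 CPM in the parental libraries and 1129 to 2940.3 in the clones. Their part in the member values was not tested. In total 14 members were called between the numbers, but 8 without ABTr2 replicate 1 and 7 without ABTr2 replicate 2.

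**Figure D4:**
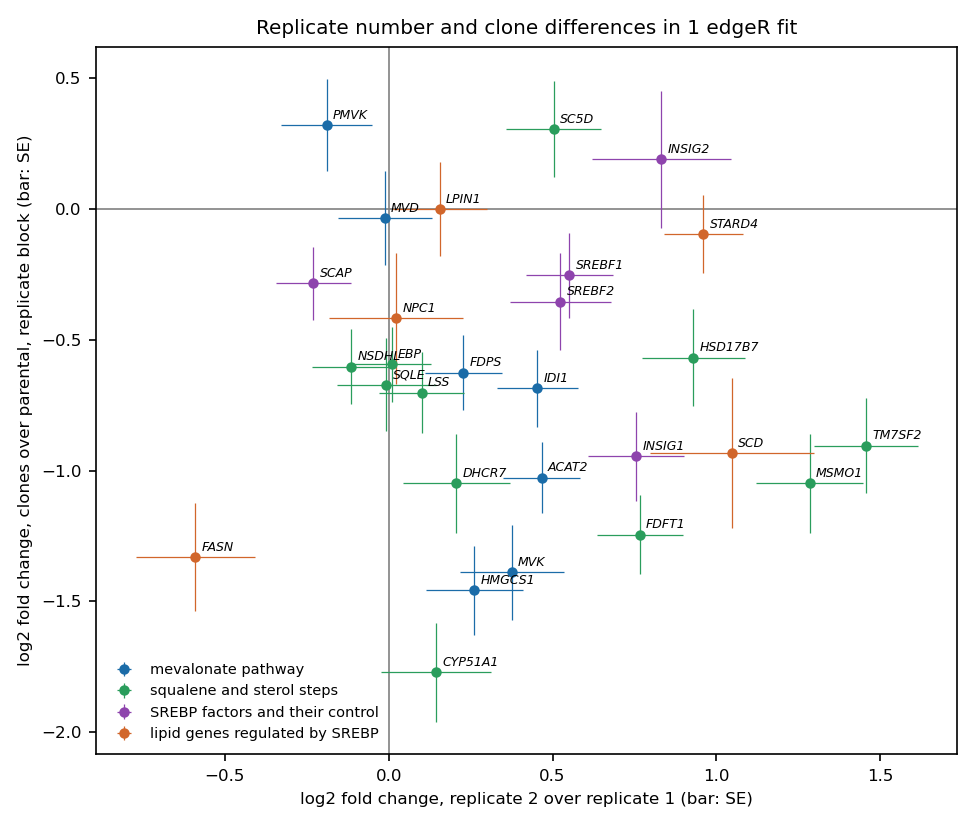
Each point is 1 of the 28 members, coloured by role, with the log2 fold change of replicate 2 over replicate 1 on the x axis and of the clones over the parental line on the y axis, both from edgeR with the replicate block; bars are 1 standard error. TM7SF2 and MSMO1 lie furthest to the right, CYP51A1 lies lowest, and FASN is the member furthest to the left.

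Other genes of the pathway were counted from lists that do not contain the members. Beside these counts, 7.17% of all genes tested rose and 8.79% fell without the block. With the block 16.3% rose and 18.2% fell. Of 14 further genes of sterol synthesis, uptake and SREBP processing, 1 rose and 3 fell, with a median log2 difference of -0.16, and with the block 1 rose and 4 fell. MBTPS1, the protease that makes the first cut in SREBP, rose from 113 and 145 CPM in the parental libraries to between 188 and 275 in the clones (log2 difference 0.75, SE 0.20, adjusted p = 0.0376). MBTPS1 lies on chromosome 16 at 84087366-84150548 of hg19, and the member MVD lies on the same chromosome at 88718348-88729495. The part of chromosome position in the values of these genes, or of any other gene here, was not tested. Of 9 genes of fatty acid synthesis and desaturation 1 fell, the citrate carrier gene SLC25A1 (-0.89, SE 0.21, adjusted p = 0.0242), and 8 of 9 had a negative sign (median -0.51), while 4 fell with the block. Of 7 genes of the liver X receptor and of sterol export or storage 1 rose, with a median of 0.12. That gene was ABCA1, which exports cholesterol from cells and is a known target of the liver X receptor. It read 8.31 and 8.51 CPM in the parental libraries, 35.4 and 58.4 in ABTr1, 57.5 and 60.8 in ABTr2, 58.4 and 62.5 in ABTr3, and 17.6 and 36.4 in ABTr4. Every clone library was above both parental libraries, with a log2 difference of 2.45 (SE 0.35, adjusted p = 0.00266). With the block ABCG1, another exporter of sterol, rose as well: it read 0.422 and 0.774 CPM in the parental libraries and 1.12 to 28.3 in the clones (log2 difference 3.66, SE 0.51, adjusted p = 0.000511, and 0.0875 without the block). In the same fit NR1H3, which encodes a liver X receptor, fell: it read 5.55 and 14.1 CPM in the parental libraries and 2.70 to 10.0 in the clones (log2 difference -0.81, SE 0.22, adjusted p = 0.0178, and 0.307 without the block). With the block the list thus had 2 of 7 genes that rose and 1 that fell, where 16.3% and 18.2% of all genes did.

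The labels call the cells epithelial. The 6 epithelial markers checked were present in the parental line, at a summed 8948 and 13684 CPM. All 6 fell in the clones, to sums of 2546 to 3414 CPM, with a median log2 difference of -2.17. Of all genes tested 8.79% fell. PAX8, a marker of the serous ovarian lineage, was present, and 2 of the 3 testable markers of that lineage fell, while SOX17 had 0 counts. Some markers of other cell types were at or near 0 and others were counted. Over all libraries together, COL3A1, DCN and LUM had 0 counts, COL1A2 had 2, PDGFRB 225 and COL1A1 2648, while PTPRC had 21 and CD3E 6, and among endothelial markers PECAM1 had 217, VWF 266, KDR 354 and CDH5 2900. The summed leukocyte list was higher in the clones (55.8 to 141 CPM, against 31.8 and 34.1), led by CD68, which tumour cells also express. The endothelial list summed to 15.5 and 62.3 CPM in the parental libraries and 2.01 to 16.3 in the clones, a sum that CDH5 carried in the parental line. CDH5 fell (log2 difference -4.78, SE 1.00, adjusted p = 0.0148), while the other 3 endothelial markers had a positive log2 difference, and KDR rose with the block (adjusted p = 0.0303, and 0.139 without it). The fibroblast list summed to 8.28 and 8.63 CPM in the parental libraries and 1.93 to 16.7 in the clones, and PDGFRB rose with the block (adjusted p = 0.0175, and 0.0573 without it). The proliferation markers, which moved with the replicate number, were called in 0 of 8 between clones and parental line (1 had an unadjusted p under 0.05, and 1 fell with the block). Epithelial markers and the synthesis genes were thus lower in the same libraries, and the part of that change in the member values was not tested.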

How the data were processed

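Poly(A) RNA was extracted on RNeasy columns and made into libraries with the TruSeq RNA Library Prep Kit v2, per the labels' protocols. The submitters' processing notes name TopHat2 2.0.14, featureCounts 1.4.6 of Subread and the build hg19. The deposited table holds whole-number read counts for 25370 genes in 10 libraries. Settings for strand and shared reads are not given in the sources used here. The design text speaks of 15 samples in 3 experiments, and 10 libraries were used here.

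edgeR 4.0.16 (R 4.3.3) was run with filterByExpr, TMM scaling and a quasi-likelihood fit of the 5 groups over all libraries (16490 genes, 5 residual degrees of freedom), with Benjamini-Hochberg adjustment over all genes and a threshold of 0.05. Depth ranged from 20640602 to 55488566 counts. Same-numbered libraries deviated together, with r from 0.348 to 0.808 in log2(CPM + 0.5) over 10 pairs of groups, a pairing hinted at by the data and not stated in the labels. The replicate block was therefore fitted beside the main model. Alternatives were DESeq2 1.42.0, its size factors in edgeR, no filter, each clone as 1 unit, and each library left out. Clone levels are means over 4 clones. All 28 members are named. Of the other lists, up to 4 called genes with the smallest adjusted p were to be named, markers are given as counts and sums, and some genes under this rule are not reported here. Promoters were matched by symbol to RefSeq (GRCh38.p14), and up to 3 members with the sterol element were to be shown. Only SREBF2 met that rule, and HMGCS1 and MVK were added for their CCAAT boxes after their values were seen. The members and lists were chosen with earlier results of these data known.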

Additional observations from a re-analysis of the deposited data

Results flagged for a closer look

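SQLE was flagged because the mean of ABTr1 stood apart from those of the other clones. The 4 clone means were 119 CPM in ABTr1, 208 in ABTr2, 199 in ABTr3 and 213 in ABTr4, and the gap below ABTr2 to ABTr4 made up a fraction of 0.845 of the whole range. Chance flags about 1 in 20 groups by this measure, so 1 such flag among 28 members can arise by chance. HMGCS1, ACAT2 and IDI1 were flagged because their difference from the parental line was not the same in the 4 clones. With the replicate block in edgeR, the test of equal levels among clones gave an adjusted p of 0.0492 for HMGCS1, 0.0348 for ACAT2 and 0.0405 for IDI1. Without the block the same test gave 0.633, 0.796 and 0.834, and by DESeq2 0.00938, 0.0958 and 0.123.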

How the results depend on the processing

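The parental line has 2 libraries, of which replicate 2 had the higher level of most members. With the replicate block, the members called for the mean of the clones went from 10 to 18 and all genes from 2631 to 5699. In fits with the block that left out each library in turn, an alternative chosen after seeing the data, 16, 17 or 18 members were called, except 8 without parental replicate 2, and the median difference was -0.91 without parental replicate 1. In the fit with each clone as 1 unit, the libraries of a clone were summed while the 2 parental libraries stayed separate. Its spread thus mixes differences between clones with those between parental libraries. That fit called 6 members, ACAT2 (adjusted p = 0.071), LSS (0.0783), EBP (0.1) and NSDHL (0.106) being lost. With no filter 8 were called, EBP (0.0643) and NSDHL (0.0688) being lost, and with DESeq2 12 members and 4072 genes. For single clones against the parental line, the block gave 18, 10, 10 and 11 members and 4956, 3640, 3722 and 4450 genes in ABTr1 to ABTr4. DESeq2 gave 4 members in ABTr2 and 2 in ABTr4, with 3175, 2488, 2526 and 3118 genes, and no filter gave 2 members in ABTr2. Among clones the block gave 3 members and 139 genes, DESeq2 1 and 285, and no filter 2 genes. For ABTr1 against the other clones the block gave 8 members and 489 genes, DESeq2 3 and 192, and no filter 6 genes. For the other clones against the rest, the genes called were 18 by DESeq2 in ABTr2, 34 with the block and 75 by DESeq2 in ABTr3, and 90 with the block, 158 by DESeq2 and 1 with no filter in ABTr4. The causes of these shifts were not tested, beyond the fewer samples in fits that leave out a library.

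Leaving out 1 library without the block gave 2 to 11 members, 918 to 2527 genes and a median of -0.90 to -0.29 for the mean of the clones. For single clones it gave 0 to 12 members and 221 to 1559 genes in ABTr1, 0 to 3 and 251 to 1028 in ABTr2, 0 to 4 and 81 to 1256 in ABTr3, and 1 to 3 and 453 to 1594 in ABTr4. It gave 0 to 1 genes among clones, 0 to 2 for ABTr1 against the other clones, and 7 to 13 members and 2507 to 5725 genes between replicate numbers. The sign of the mean log2 difference turned for MVD (-0.29 to 0.22), MSMO1 (-1.93 to 0.069), SC5D (-0.16 to 0.79), SREBF1 (-0.50 to 0.0061), SREBF2 (-0.73 to 0.024), INSIG2 (-0.27 to 0.71), STARD4 (-0.65 to 0.56), LPIN1 (-0.26 to 0.24), SCD (-1.87 to 0.22) and NPC1 (-0.90 to 0.21). LPIN1 also turned with the block (0.00052) and with each clone as 1 unit (0.011). Between replicate numbers the sign turned for MVD (-0.16 to 0.070), SQLE (-0.11 to 0.14), LSS (-0.023 to 0.17), CYP51A1 (-0.043 to 0.28), EBP (-0.092 to 0.056) and NPC1 (-0.26 to 0.17), and INSIG1 in ABTr4 ranged from -0.93 to 0.25. Scaling by DESeq2's size factors in edgeR kept the sign of all 28 members and added 1 call, FDPS.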
